A study of Sander lucioperca with 12 samples.

Results

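The genes of insulin and insulin-like growth factor (IGF) signalling were followed in whole brains of young-of-the-year pikeperch (Sander lucioperca), a predatory freshwater fish whose juveniles feed on plankton before some of them turn to fish. Members were chosen by symbol, mainly as every named row of the count table whose symbol starts with igf1, igf2, igf3, igfbp, igfals, insr, irs1 to irs4, ghr, akt with a number, rptor, rictor, tsc1, tsc2, foxo or pik3, or is mtor. The rule found 60 of 32963 named genes, spread over 21 chromosomes of the assembly SLUC_FBN_1.2. Rows known only by a locus number were not searched for further copies. Wild fish from Lipno Reservoir made up 4 groups of 3 fish with 1 library each, namely piscivores of 2023, planktivores of 2023, piscivores of 2022 and planktivores of 2022. All were caught in August surveys, the piscivores (labelled piscivorous/cannibal in 2023) in the littoral zone and the planktivores in the pelagic zone, so that habitat and capture method went with the phenotype. Their sex could not be told by dissection. By the text of the study, standard length increased in the order planktivores of 2023, planktivores of 2022, piscivores of 2023 and piscivores of 2022. Size therefore cannot be told apart from phenotype, nor from year within a phenotype. The labels give 1 batch date for each year, and year and batch cannot be told apart either.

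In this pathway, IGF1 and IGF2 are secreted growth factors that bind the IGF1 receptor, while insulin binds the closely related insulin receptor. IGF-binding proteins carry the ligands and limit or prolong their action, and growth hormone, acting through its receptor, drives the release of IGF1, mainly by the liver. The activated receptors engage insulin receptor substrates and PI3K, whose lipid product recruits the kinase AKT. AKT restrains the TSC complex and so releases the growth kinase mTOR, and it also keeps FoxO transcription factors out of the nucleus. In the vertebrate brain, locally made IGFs are known for roles in neuron growth and survival, and circulating IGFs also reach it.

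The rule also took in genes that share a symbol stem without acting in this cascade. These were 3 genes of IGF2 mRNA-binding proteins (igf2bp1, igf2bp2a and igf2bp3), which bind RNA rather than growth factors, 2 TSC22-domain genes (tsc22d2 and tsc22d3), and ghrh, ghrhrb, ghrhrl and ghrl, which belong to growth hormone-releasing hormone, its receptors and ghrelin. They are described apart from the pathway members, but counts of members include them.

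The libraries held 15327406 to 33858794 counts on named genes, and 3 counts, taken as the detection floor for counting error only, equalled 0.0815 to 0.196 CPM (counts-per-million) after scaling by the trimmed mean of M-values (TMM). The share of ribosomal RNA was at most 0.36% in the libraries of 2023 and 12.0% to 21.0% in those of 2022. The 15 brain markers summed to 13903 CPM or more in every library. Transcripts of the pituitary were present in piscivores 1 and 2 and planktivore 4 of 2023, with gh1, growth hormone, at 704, 1089 and 77.5 CPM there and at 18.7 CPM or less in the other 9 libraries. Among the 57 members tested, 19 were lowest of the 12 libraries in planktivore 4 of 2023 and 10 in piscivore 2 of 2023. In these libraries 13.2% and 9.37% of all genes tested were lowest. Highest of the 12 were 14 members in planktivore 3 of 2022 and 10 in piscivore 3 of 2022, where 8.49% and 10.7% of all genes were highest.

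Expressed per transcript length, as the deposited TPM (transcripts-per-million), the members covered a wide range. The most abundant was igfbp2a, an IGF-binding protein gene, with a mean of 132 TPM and 86.3 to 183 TPM among the 12 brains. The next was pik3ip1, a negative regulator of PI3K, with a mean of 120 TPM. Then came tsc22d3, akt1s1 (encoding PRAS40, a restraining component of the mTOR complex) and igfals with mean levels of 71.7, 71.5 and 55.0 TPM. The ligand igf2b averaged 20.7 TPM and igf1 3.71 TPM, a difference between genes that exceeded the spread among libraries, since the lowest igf2b value, 12.1 TPM, lay above the highest igf1 value, 8.80 TPM. The insulin and IGF receptor genes lay between 3.81 TPM for igf1ra and 10.4 TPM for insra. The genes igfbp2b and pik3c2g had the lowest means of those tested, 0.983 and 0.355 TPM.

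At the bottom, igf3, a ligand known from fish gonads, had 0 to 4 counts per library, pik3r6b 0 to 9 counts, and ghrl, the ghrelin gene, 1 count over all libraries. These 3 genes failed the filter on low counts in every comparison, so that 57 members were tested in each. The insulin genes ins and insb, which are not members, had 6 and 25 counts in all 12 brains together.

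**Figure D1:**
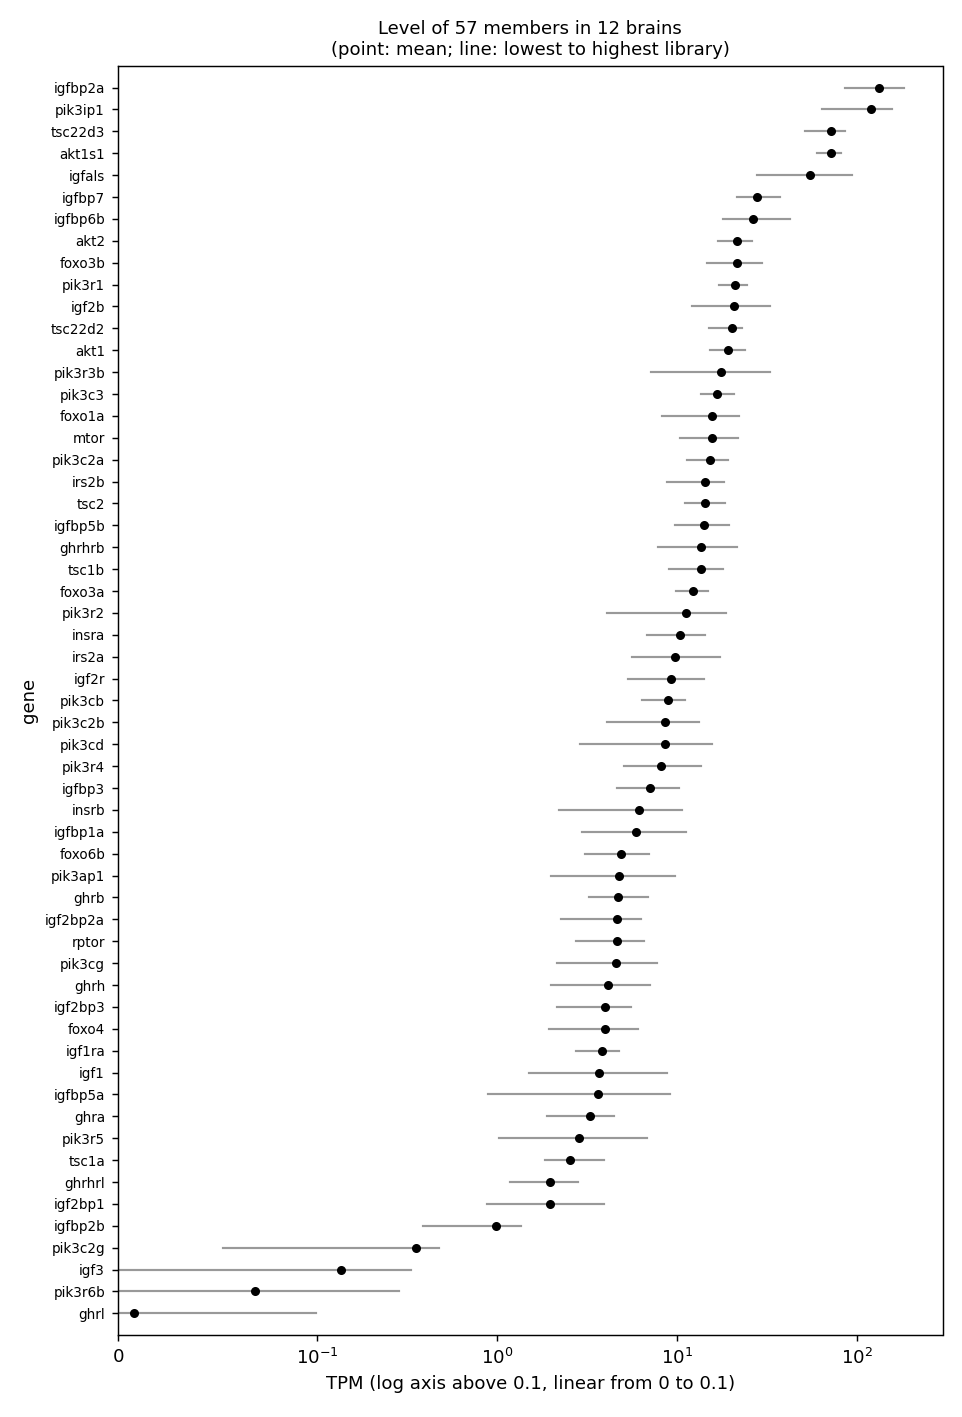
TPM of 57 members (horizontal axis, logarithmic above 0.1), with the mean of the 12 brains as a point and the lowest to highest library as a line. The means run from 132 TPM for igfbp2a to values near 0 for igf3, pik3r6b and ghrl.

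Between the phenotypes of 2023, no member was differentially transcribed (DT), that is, at an adjusted p below 0.05 with an absolute log2 fold change above 1 in the quasi-likelihood F test of edgeR with p-values adjusted after Benjamini and Hochberg across the whole table, where 0.168% of 21386 genes were. All adjusted p-values and standard errors (SE) below come from that test unless DESeq2 is named. The unadjusted p was below 0.05 in 11 of 57 members, against 13.7% of all genes. The groups did not overlap in 15, with 10 higher and 5 lower in piscivores, against 10.7% and 9.31% of all genes. Genes outside the cascade were among the 11 (ghrhrb, igf2bp1, igf2bp3 and tsc22d3) and among the 15 (these with igf2bp2a and tsc22d2). Between the phenotypes of 2022 no member was DT either, against 0.0533% of 20624 genes. Here the unadjusted p was below 0.05 in 11 members, against 7.25% of all genes. The groups did not overlap in 16 members, with 7 higher and 9 lower in piscivores, against 7.08% and 6.28%. Outside the cascade were igf2bp1, igf2bp2a and igf2bp3 among the 11, and these with ghrhrl among the 16. DESeq2's Wald test, at the same thresholds, called 2 members in 2023, igfals and igfbp5a, against 1.81% of all genes. In 2022 it called 4, igf1, igfals, igfbp1a and igf2bp1, against 0.698%. With 3 fish a group, the smallest two-sided p of an exact permutation test is 0.1. Smaller p-values therefore rest on the model assumed for the counts and on variance shared across genes.

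With both years in 1 model that held year as a term, 2 of the 57 members were DT, against 0.298% of 21789 genes. Expression of igfals was higher in piscivores, and that of igf2bp1 lower. Passing the adjusted p alone were 4 members, against 0.707% of all genes, with igf2b higher and igf2bp3 lower in addition. DESeq2's Wald test called 4, igf1, igfals, igfbp5a and igf2bp1, against 0.959%. In this model 17 members had an unadjusted p below 0.05, against 14.9% of all genes. Among the 17, ghrhrb, ghrhrl, igf2bp1, igf2bp2a, igf2bp3 and tsc22d3 lie outside the cascade. Piscivores deviated from planktivores in 1 direction in 2023 and 2022 alike for 40 of the 57 members (70.2%), and for 59.2% of the genes tested in both years.

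The gene igfals (chromosome 21 from 5931916 to 5934805) encodes the acid-labile subunit, which in mammalian blood joins IGF and a binding protein in a long-lived complex. Piscivores of 2023 had 114, 124 and 60.5 CPM, against 50.8, 45.6 and 39.8 CPM in planktivores of 2023. In 2022, piscivores had 91.8, 125 and 138 CPM, against 44.8, 61.2 and 44.3 CPM in planktivores. Piscivore 4 of 2023, at 60.5 CPM, was the only piscivore below any planktivore, lying just under planktivore 3 of 2022. Over both years igfals was 2.26-fold higher in piscivores (log2 fold change 1.18, SE 0.17, adjusted p = 0.0255 by edgeR), and within the years its log2 fold changes were 1.13 (SE 0.26) in 2023 and 1.25 (SE 0.20) in 2022. The call was lost without piscivore 3 of 2022, piscivores 1 and 2 of 2023, planktivore 2 of 2022 or planktivore 5 of 2023. Each was left out alone, and these fits gave adjusted p-values of 0.0578 to 0.0812 and log2 fold changes of 1.10 to 1.19. In the same 5 fits 1 to 4 genes of the whole table were called higher and 0 to 2 lower, against 52 and 13 with all 12 libraries.

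The ligand igf2b (chromosome 7 from 2832130 to 2840114) followed the same pattern at a smaller size. It reached 60.7, 49.4 and 50.4 CPM in piscivores of 2023, against 36.1, 27.8 and 23.0 CPM in planktivores of 2023. The values of 2022 were 48.5, 42.3 and 70.2 CPM in piscivores and 33.3, 35.4 and 33.3 CPM in planktivores. All 6 piscivores lay above all 6 planktivores. The difference over both years, a log2 fold change of 0.76 (SE 0.14, adjusted p = 0.0308 by edgeR), passed the adjusted p but not the fold threshold. Its adjusted p stayed below 0.05 in 4 of the 12 fits with a single library left out (piscivore 1 or 2 of 2022, piscivore 4 or planktivore 4 of 2023). In the other 8 it reached 0.0568 to 0.110, and there 1 to 50 of all genes passed the adjusted p alone, against 154 with all libraries. By CPM, only igf2b and pik3c2a of the 57 members were higher in all 6 piscivores than in any planktivore, against 0.863% of all genes. The class II PI3K gene pik3c2a had 56.6 to 78.4 CPM in piscivores and 49.1 to 55.6 CPM in planktivores. Its TPM values overlapped, at 13.3 to 19.3 in piscivores and 11.4 to 15.8 in planktivores.

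Markers of other tissues moved with igfals and igf2b. The 12 meninges markers summed to 438 to 1107 CPM in piscivores and 166 to 342 CPM in planktivores of 2023, and to 389 to 647 CPM in piscivores and 213 to 333 CPM in planktivores of 2022, with 10 of the 12 genes higher in every piscivore of 2023 and 11 in every piscivore of 2022. Their part in the differences of igfals and igf2b was not tested. The sum of the 10 liver markers was also higher in piscivores, at 17392 to 22129 against 5644 to 12297 CPM in 2023. In 2022 it was 13235 to 21456 against 8941 to 10739 CPM. This sum rested on tfa, apoa1b and apoa2. Of the others, ttr was at 0 in all libraries and fga, fgb, fgg, fetub, hpxb and apobb.1 were at 1.06 CPM or less throughout. In each year only 2 of the 10 genes, tfa and apoa1b, were higher in every piscivore, and 1 of the scarce genes was lower. The part of these markers in the differences of igfals and igf2b was not tested either. In whole-brain RNA, fewer cells of a type and less RNA per cell cannot be told apart.

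The growth factor igf1 (chromosome 20 from 5336813 to 5355566) had separate values in the phenotypes of 2022 and overlapping ones in 2023. Piscivores of 2023 had 5.30, 11.8 and 11.0 CPM, against 10.6, 6.42 and 6.78 CPM in planktivores of 2023. In 2022 the piscivores had 11.1, 22.3 and 10.4 CPM, against 4.68, 3.59 and 3.92 CPM in planktivores, so that the lowest piscivore was above the highest planktivore. The 2022 difference was a log2 fold change of 1.87 (SE 0.32), a fold of 3.65, with an adjusted p of 0.151 in edgeR and 4.65e-05 in DESeq2's Wald test. Over the alternatives its adjusted p ranged from 4.65e-05 to 0.166. The log2 fold change of 2023 was 0.24 (SE 0.33). Subtracting the 2022 effect from that of 2023 gave −1.64 (SE 0.52, unadjusted p = 0.00867, adjusted p = 0.618 by edgeR), and it did not pass the adjusted threshold in edgeR or in DESeq2, where the adjusted p was 0.174.

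No member passed the test of the difference between years in the phenotype effect, in edgeR or in DESeq2, against 0.0138% of all genes in edgeR and 0.404% in DESeq2, and 5 had an unadjusted p below 0.05, against 6.4% of all genes. Those 5 were igf1, igfbp1a, irs2a, ghra and tsc22d3. The binding protein gene igfbp1a, whose product restrains IGFs and is known to rise in fasting fish, had 5.27, 3.37 and 6.74 CPM in piscivores and 5.95, 4.81 and 5.39 CPM in planktivores of 2023. In 2022 it had 4.77, 4.24 and 4.75 CPM in piscivores, against 9.13, 8.53 and 10.4 CPM in planktivores. The planktivores of 2022 stood above every other fish. That year's log2 fold change was −1.01 (SE 0.17, adjusted p = 0.138 in edgeR and 0.00269 in DESeq2).

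A like pattern was seen in irs2a, an insulin receptor substrate that links the activated receptor to PI3K. It had 18.7, 14.8 and 26.1 CPM in piscivores and 15.1, 19.9 and 16.8 CPM in planktivores of 2023. In 2022 the piscivores had 23.4, 18.9 and 20.5 CPM and the planktivores 32.2, 33.7 and 37.1 CPM, again the highest group without overlap with any other. Its 2022 log2 fold change was −0.70 (SE 0.14, adjusted p = 0.214 by edgeR). Its duplicate irs2b had 30.6 to 56.0 CPM over the 12 libraries, with log2 fold changes of 0.04 in 2023 and −0.19 in 2022. Markers of skeletal muscle also set the planktivores of 2022 apart from the piscivores of that year. The 10 muscle markers summed to 10.6 to 15.8 CPM in piscivores and 47.7 to 60.5 CPM in planktivores of 2022, with 5 of the 10 genes lower in every piscivore. In 2023 they summed to 10.1 to 16.5 CPM in piscivores and to 57.5, 14.5 and 10.6 CPM in planktivores 4, 5 and 6. Planktivore 4 of 2023 thus lay within the marker range of the planktivores of 2022, but below all of them in igfbp1a and irs2a. The part of the muscle markers in the values of igfbp1a and irs2a was not tested.

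**Figure D2:**
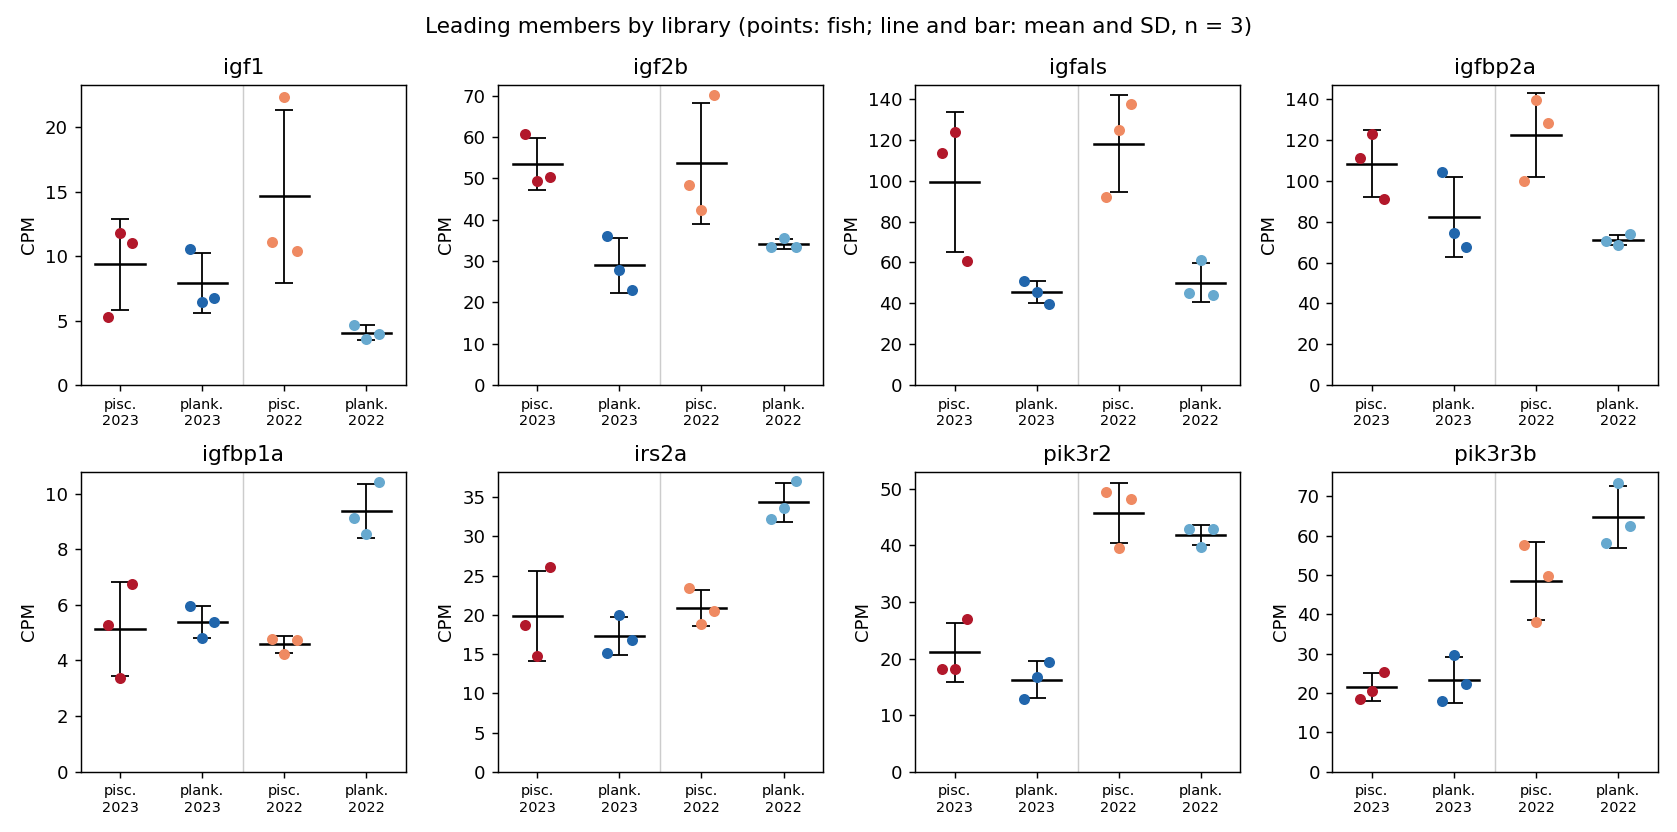
TMM-normalized CPM of 8 members (vertical axes from 0) in the piscivores and planktivores of 2023 and of 2022, 1 point per fish, with the mean and SD of 3 fish. All piscivores lie above all planktivores in igf2b, the planktivores of 2022 stand apart in igfbp1a and irs2a, and both groups of 2023 lie below both groups of 2022 in pik3r2 and pik3r3b.

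The other 7 binding protein genes gave mixed values. The log2 fold changes of igfbp2a were 0.40 (SE 0.19) in 2023 and 0.80 (SE 0.16) in 2022, with 91.1 to 123 CPM in piscivores and 67.8 to 105 CPM in planktivores of 2023, which overlapped, and 99.8 to 140 CPM in piscivores and 68.7 to 73.8 CPM in planktivores of 2022, which did not. The gene igfbp5a had 13.6, 7.12 and 7.95 CPM in piscivores and 3.39, 2.76 and 3.50 CPM in planktivores of 2023. In 2022 it had 10.1, 2.92 and 17.4 CPM in piscivores and 1.85, 6.70 and 2.71 CPM in planktivores. The groups of igfbp5a were separate in 2023 (log2 fold change 1.58, SE 0.27, adjusted p = 0.0959 by edgeR and 8.1e-05 by DESeq2) and overlapped in 2022, where the SE was 0.73. The 10 telencephalon markers summed to 200, 105 and 102 CPM in piscivores and 59.1, 56.4 and 49.9 CPM in planktivores of 2023, with 7 of the 10 genes higher in every piscivore. In 2022 their sums were 124, 27.8 and 149 CPM in piscivores and 35.0, 86.1 and 34.0 CPM in planktivores, with 0 of the 10 genes separate. Their part in the igfbp5a values was not tested. Its duplicate igfbp5b had 26.5 to 39.6 CPM in the 6 piscivores and 20.6 to 29.2 CPM in the 6 planktivores. By edgeR igfbp5b was higher in piscivores at an unadjusted p below 0.05 in 2023, in 2022 and over both years, without being DT. Its groups were separate in 2022 and overlapped in 2023. Phenotype log2 fold changes of 2023 and 2022 were 0.35 and 0.16 for igfbp3, −0.31 and 0.36 for igfbp6b, −0.16 and 0.39 for igfbp7, and −0.52 and −0.28 for igfbp2b, and none of these 4 genes had an unadjusted p below 0.05 in either year.

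Binding protein genes lay next to each other at 3 places in the genome, each with 1 gene on the plus and 1 on the minus strand. On chromosome 24, igfbp5a (7464657 to 7473369) and igfbp2a (7474453 to 7490851) were 1.08 kb apart. On chromosome 8, igfbp5b and igfbp2b were 12.2 kb apart, and on chromosome 11, igfbp3 and igfbp1a were 3.89 kb apart. The levels of igfbp2a, 86.3 to 183 TPM, lay far above those of its neighbour igfbp5a, 0.886 to 9.14 TPM, and those of igfbp5b, 9.78 to 19.5 TPM, above those of igfbp2b, 0.384 to 1.35 TPM, while igfbp3 and igfbp1a overlapped at 4.63 to 10.2 and 2.96 to 11.2 TPM. The 2022 phenotype log2 fold changes were 0.16 for igfbp3 and −1.01 for its neighbour igfbp1a. No exon overlap with another gene exceeded 10% of the exon length of any member.

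Receptor genes differed little between phenotypes. Over both years the log2 fold changes, piscivores over planktivores, were −0.14 (SE 0.08) for igf1ra, 0.13 (0.13) for igf2r, 0.05 (0.10) for insra and −0.11 (0.21) for insrb, and none of the 4 had an unadjusted p below 0.05. Per length, insra made up 52.5% to 75.9% of the TPM of the 2 insulin receptor genes together. The growth hormone receptor gene ghra had 10.2, 10.5 and 10.5 CPM in piscivores and 5.71, 7.51 and 5.62 CPM in planktivores of 2023 (log2 fold change 0.72, SE 0.17, unadjusted p = 0.00271, adjusted p = 0.151 by edgeR). In 2022 its values overlapped, with 7.15 to 10.4 CPM in piscivores and 7.82 to 11.8 CPM in planktivores. Its duplicate ghrb overlapped between the phenotypes in both years, at 8.71 to 14.1 CPM in piscivores and 8.41 to 12.4 CPM in planktivores of 2023.

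Among the growth hormone-releasing hormone genes, ghrhrb, a receptor gene, had 18.8, 16.5 and 17.1 CPM in piscivores and 9.67, 12.8 and 7.77 CPM in planktivores of 2023 (log2 fold change 0.79, SE 0.19, adjusted p = 0.161 by edgeR). The 8 pituitary markers summed to 2630, 2354 and 0.746 CPM in piscivores 1, 2 and 4 of 2023. They summed to 565, 3.52 and 0.529 CPM in planktivores 4, 5 and 6 of 2023. Their part in the ghrhrb values was not tested. In 2022 ghrhrb had 11.9 to 23.8 CPM in piscivores and 13.0 to 15.6 CPM in planktivores. The hormone gene ghrh had 1.58 to 2.42 CPM in piscivores and 1.65 to 3.47 CPM in planktivores of 2023, and 0.908 to 1.54 CPM in piscivores and 1.12 to 2.52 CPM in planktivores of 2022, overlapping in both years. The receptor-like ghrhrl had 2.58 to 3.48 CPM in piscivores and 2.38 to 4.53 CPM in planktivores of 2023. In 2022 it had 1.76 to 2.26 CPM in piscivores and 2.52 to 3.38 CPM in planktivores, without overlap (log2 fold change over both years −0.42, SE 0.19, unadjusted p = 0.0439, adjusted p = 0.319 by edgeR).

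All 3 genes of the IGF2 mRNA-binding proteins were lower in CPM in every piscivore than in every planktivore. These proteins bind messenger RNA, and in mammals IGF2BP1 and IGF2BP3 are abundant in the embryo and scarce in most adult tissues. For igf2bp1 (chromosome 2 from 20158186 to 20227038) piscivores had 2.66, 3.88 and 3.90 CPM and planktivores 5.47, 7.57 and 6.51 CPM in 2023. In 2022 piscivores had 3.66, 3.58 and 2.51 CPM and planktivores 5.79, 10.7 and 7.66 CPM. Every planktivore exceeded every piscivore. Expression of igf2bp1 fell to a mean of 3.37 CPM in piscivores, against 7.28 CPM in planktivores, over both years (log2 fold change −1.11, SE 0.18, adjusted p = 0.0297 by edgeR). Only when piscivore 1 or 2 of 2022, piscivore 4 of 2023 or planktivore 4 of 2023 was left out did this call remain. Without each of the other 8 libraries the adjusted p was 0.0534 to 0.0959, with log2 fold changes of −1.17 to −0.97. In those 8 fits 1 to 29 genes of the whole table were called higher and 0 to 7 lower, against 52 and 13 with all libraries.

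The other members of the family gave smaller differences. Values of igf2bp3 (chromosome 16 from 21752738 to 21773289) were 8.86, 8.27 and 8.35 CPM in piscivores and 11.6, 12.3 and 13.0 CPM in planktivores of 2023. In 2022 they were 9.09, 6.77 and 5.77 CPM in piscivores and 12.5, 14.4 and 12.7 CPM in planktivores. The groups were separate, and the log2 fold change over both years was −0.71 (SE 0.12, adjusted p = 0.0297 by edgeR), below the fold threshold. The adjusted p stayed below 0.05 in 4 of the 12 single omissions, those named for igf2bp1. It was 0.0549 to 0.0812 in the other 8, in which 1 to 50 of all genes passed it, against 154 with all libraries. The gene igf2bp2a had 4.83 to 8.37 CPM in piscivores and 8.48 to 12.6 CPM in planktivores, so that its closest values nearly met (log2 fold change −0.57, SE 0.13, adjusted p = 0.0776). Its TPM values overlapped, at 2.25 to 4.33 in piscivores and 3.88 to 6.33 in planktivores. By CPM the 3 igf2bp genes were the only members lower in all piscivores than in any planktivore, against 0.454% of all genes. Their 2023 less 2022 differences in the phenotype effect were 0.37 (SE 0.36) for igf2bp1, 0.08 (0.28) for igf2bp2a and 0.32 (0.22) for igf2bp3.

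**Figure D3:**
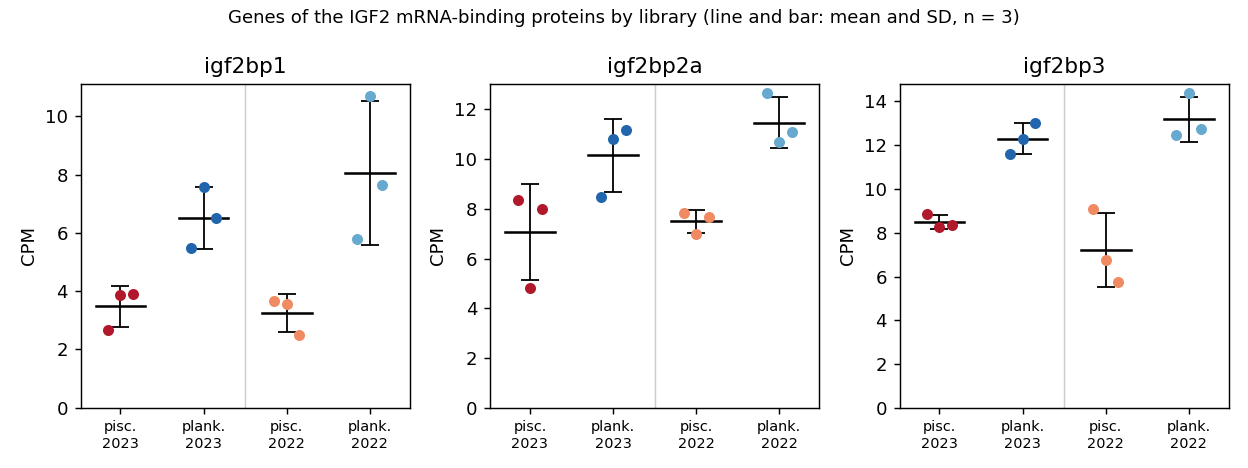
TMM-normalized CPM of igf2bp1, igf2bp2a and igf2bp3 (vertical axes from 0) in the piscivores and planktivores of 2023 and of 2022, 1 point per fish, with the mean and SD of 3 fish. In each panel the 6 piscivores lie below the 6 planktivores, closest in igf2bp2a at 8.37 and 8.48 CPM.

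The TSC22-domain genes are named for a transcription factor family and have no part in the TSC complex. The gene tsc22d3, known in mammals as the glucocorticoid-induced leucine zipper gene, had 136, 140 and 133 CPM in piscivores and 96.1, 82.0 and 83.2 CPM in planktivores of 2023. In 2022 it had 120, 125 and 149 CPM in piscivores and 146, 114 and 117 CPM in planktivores. The groups were separate in 2023 only, and the 2023 log2 fold change was 0.65 (SE 0.12, adjusted p = 0.0969 by edgeR and 3.57e-05 by DESeq2). The phenotype effect of 2023 less that of 2022 was 0.56 (SE 0.19, unadjusted p = 0.013, adjusted p = 0.645).

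Between years, the planktivores of 2023 had 2 members lower than the planktivores of 2022 at the DT thresholds, against 0.971% of 21311 genes DT in either direction. DESeq2's Wald test called 3, these 2 and insrb, against 2.72%. Both encode regulatory subunits of class I PI3K, which hold the catalytic subunit and bring it to phosphorylated substrates. For pik3r2 (chromosome 9 from 35727921 to 35760966) the planktivores of 2023 had 12.8, 16.8 and 19.3 CPM, against 43.0, 39.8 and 42.8 CPM in planktivores of 2022. Piscivores of 2023 had 18.2, 18.1 and 27.1 CPM, against 49.4, 39.6 and 48.2 CPM in piscivores of 2022. Both phenotypes were lower in 2023 without overlap. In planktivores pik3r2 was 2.55-fold lower in 2023 (log2 fold change −1.35, SE 0.16, adjusted p = 0.0215), and in piscivores the log2 fold change was −1.13 (SE 0.19, adjusted p = 0.0541).

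For pik3r3b (chromosome 11 from 15036053 to 15323673) planktivores of 2023 had 18.0, 29.7 and 22.3 CPM, against 58.2, 73.4 and 62.4 CPM in planktivores of 2022. Piscivores of 2023 had 18.5, 20.5 and 25.4 CPM, against 57.6, 38.1 and 49.8 CPM in piscivores of 2022. The years did not overlap in either phenotype. The log2 fold change was −1.45 in planktivores (SE 0.19, adjusted p = 0.0269 by edgeR) and −1.19 in piscivores (SE 0.19, adjusted p = 0.0507). In piscivores no member was DT by edgeR, against 0.356% of 20511 genes, whereas DESeq2's Wald test called 2, pik3r2 and pik3r3b, against 1.77%. The difference between phenotypes in the change with year had a log2 value of 0.23 (SE 0.26) for pik3r2 and 0.27 (SE 0.28) for pik3r3b, and did not pass the test by edgeR in either. In planktivores the call of pik3r2 was lost without planktivore 3 or 4 of 2022 or 5 or 6 of 2023 (adjusted p 0.0526 to 0.0742). That of pik3r3b was lost without planktivore 3 or 4 of 2022 or 6 of 2023 (0.0814 to 0.130). In each case the log2 fold change was −1.35 or below. In these fits 2 to 33 genes of the whole table were called higher and 10 to 115 lower, against 43 and 164 with all libraries.

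The regulatory subunit gene pik3r1 behaved otherwise. Expression of pik3r1, which encodes p85 alpha, was 63.1 to 74.3 CPM in piscivores of 2023 and 55.3 to 62.7 CPM in piscivores of 2022, and 65.6 to 67.7 CPM in planktivores of 2023 and 59.8 to 65.5 CPM in planktivores of 2022. The years did not overlap in CPM in either phenotype, with 2023 above 2022, but did overlap in TPM in both. The log2 fold changes were only 0.25 (SE 0.13) in piscivores and 0.09 (SE 0.10) in planktivores. The gene pik3r4, whose product partners the class III kinase encoded by pik3c3, had log2 fold changes of −0.63 (SE 0.19) in planktivores and −0.40 (SE 0.16) in piscivores. For pik3c3 itself they were 0.02 and −0.10, with SEs of 0.10 and 0.15.

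Many of the 57 members, those outside the cascade included, had lower values in 2023 than in 2022. In planktivores 45 of the 57 had a negative log2 fold change, against 49.8% of all genes, 21 were lower at an unadjusted p below 0.05, against 11.5%, and 23 were lower without overlap, against 14.6%. In piscivores 39 were negative, against 49.3% of all genes, 11 were lower at an unadjusted p below 0.05, against 10.2%, and 9 were lower without overlap, against 12.2%. With library totals in place of TMM the median log2 fold change of all genes moved from 0.002 to 0.21 in planktivores and from 0.006 to 0.20 in piscivores. The median of the 57 members moved alongside, from −0.22 to −0.01 in planktivores and from −0.10 to 0.09 in piscivores. The negative members then numbered 30 and 24, for which the 49.8% and 49.3% of all genes, taken with TMM, are no reference. In both phenotypes the median of the members stayed below that of all genes. With the 34 ribosomal RNA genes, whose share differed between the years, left out of the table, the negative members numbered 45 and 39 as before. TMM already scales by the bulk of the genes, so this removal does not test other effects of the differing ribosomal share. Passing the adjusted p alone in planktivores were 4 members, against 1.22% of all genes, the 2 PI3K subunits together with irs2a (log2 fold change −0.98, SE 0.14, adjusted p = 0.0319) and tsc1b (−0.66, SE 0.11, adjusted p = 0.0414) by edgeR. With a single planktivore left out, irs2a stayed below 0.05 in 1 of 6 fits, that without planktivore 5 of 2023 (adjusted p 0.0430 there and 0.0563 to 0.148 in the others). The gene tsc1b did so in 0 of 6 (0.0771 to 0.182). Over all genes 12 to 150 passed the adjusted p in these 6 fits, against 259 with all libraries. The 5 erythrocyte markers moved with the year in planktivores. They summed to 246 to 582 CPM in planktivores of 2023 and 59.8 to 130 CPM in planktivores of 2022, with all 5 genes higher in every fish of 2023, and to 129 to 243 CPM in piscivores of 2023 and 67.2 to 192 CPM in piscivores of 2022, with 0 of the 5 separate. Their part in the differences between years was not tested.

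By role, both insulin receptor genes had lower values in 2023. In planktivores insrb had 8.61, 17.0 and 14.1 CPM in 2023, against 26.3, 36.3 and 33.4 CPM in 2022 (log2 fold change −1.25, SE 0.24, adjusted p = 0.0552 by edgeR and 0.000239 by DESeq2). In piscivores its log2 fold change was −0.70 (SE 0.26), and the values of the 2 years overlapped. The 2023 values of insra were 28.1 to 37.0 CPM in piscivores and 29.1 to 32.7 CPM in planktivores, against 39.3 to 55.5 CPM in piscivores and 43.0 to 47.2 CPM in planktivores of 2022, with a log2 fold change of −0.56 in both phenotypes. The years of insra did not overlap in either phenotype. For igf1ra the log2 fold change was −0.18 in both, and its sign turned in both with library totals in place of TMM.

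Downstream, all 3 TSC genes, whose products restrain mTOR, had negative log2 fold changes in both phenotypes. They were −0.71 in planktivores and −0.39 in piscivores for tsc1a, −0.66 and −0.44 for tsc1b, and −0.23 and −0.22 for tsc2, with none DT. The kinase gene mtor had −0.35 (SE 0.15) and −0.23 (SE 0.13), and its partner rptor −0.48 (SE 0.16) and −0.28 (SE 0.21), in planktivores and piscivores.

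The genes akt1 and akt2 encode AKT kinases, and their values do not stand for the other genes of that family. Between years the log2 fold changes in planktivores and piscivores were 0.06 and −0.06 for akt1, 0.11 and −0.00 for akt2 and −0.17 and −0.04 for akt1s1. With library totals in place of TMM the sign turned for akt1s1 in both phenotypes and for akt1 and akt2 in piscivores. Between phenotypes the akt1 values were 33.3 to 44.3 CPM in piscivores and 31.2 to 34.7 CPM in planktivores (log2 fold change over both years 0.22, SE 0.09, adjusted p = 0.238).

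FoxO genes encode the factors that AKT holds back. In planktivores, foxo4 had 5.02 to 6.39 CPM in 2023 and 8.71 to 11.5 CPM in 2022, without overlap (log2 fold change −0.84, SE 0.17, adjusted p = 0.0618 by edgeR), and in piscivores 4.07 to 8.35 CPM in 2023 and 7.59 to 9.40 CPM in 2022. The gene foxo1a had 27.4 to 37.0 CPM in piscivores and 17.5 to 28.1 CPM in planktivores of 2023, which overlapped. Its log2 fold change was 0.52, at an unadjusted p below 0.05 by edgeR, without being DT. In 2022 foxo1a had 22.0 to 36.0 CPM in piscivores and 27.2 to 41.6 CPM in planktivores. Over both years foxo3b had 43.6 to 77.2 CPM in piscivores and 59.4 to 83.2 CPM in planktivores (log2 fold change −0.38, SE 0.16, adjusted p = 0.272). For foxo3a and foxo6b the phenotype log2 fold changes over both years were −0.14 (SE 0.08) and 0.10 (SE 0.13).

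The only member with a higher value in planktivores of 2023 than of 2022 at an unadjusted p below 0.05 was igf1, against 8.53% of all genes, with a log2 fold change of 0.97 (SE 0.25, adjusted p = 0.0994 by edgeR). With library totals in place of TMM igf1 passed both thresholds (log2 fold change 1.18, adjusted p = 0.0462). In piscivores the igf1 log2 fold change was −0.67 (SE 0.41). In piscivores no member was higher in 2023 at an unadjusted p below 0.05, against 7.14% of all genes.

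**Figure D4:**
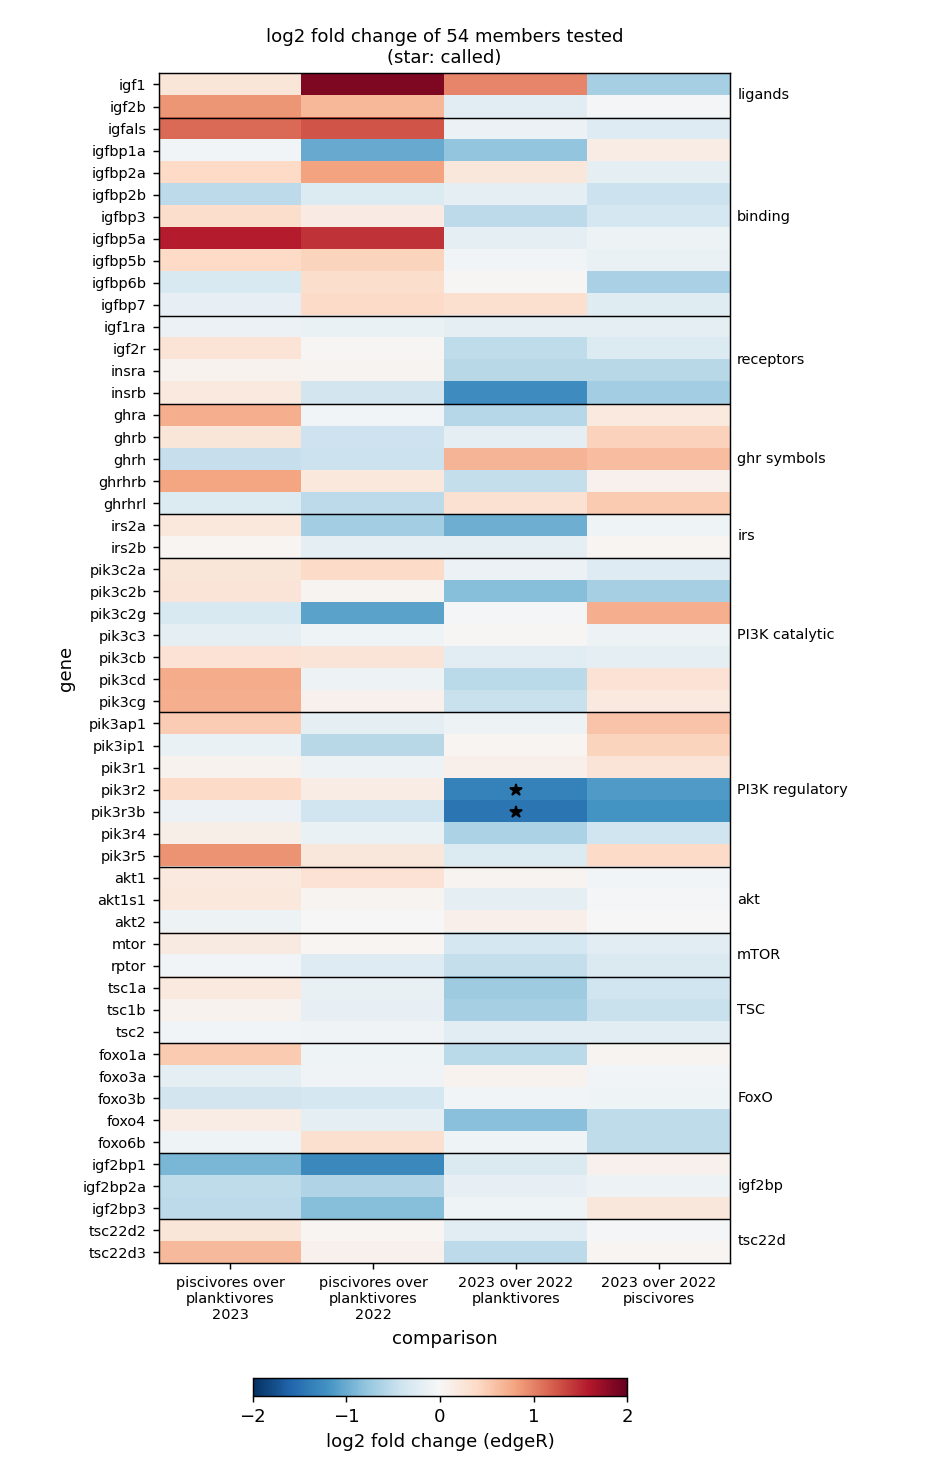
log2 fold change (colour) of 54 members tested, 1 row per gene and grouped by role, for piscivores over planktivores in 2023 and 2022 and for 2023 over 2022 in planktivores and piscivores. Stars mark the 2 calls in these comparisons, pik3r2 and pik3r3b in planktivores.

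Along the order of body size, from planktivores of 2023 through planktivores of 2022 and piscivores of 2023 to piscivores of 2022, a linear trend per step was fitted to the 4 groups. Within each phenotype the larger fish were those of 2022, so the trend joins the phenotype and year differences of the same libraries. It is therefore not separate evidence from those comparisons. By edgeR, 3 of 57 members were called at an adjusted p below 0.05 and a log2 change above 1 over the 3 steps, against 0.771% of all genes. DESeq2's Wald test called 5, these 3 (igfals, igf2bp1 and pik3r2) with igf1 and igfbp5a, against 2.24%. Those past the adjusted p alone numbered 5, against 1.19%, and those with an unadjusted p below 0.05 numbered 27, against 18.7%. Among the 27, ghrh, ghrhrb, ghrhrl, igf2bp1, igf2bp2a, igf2bp3, tsc22d2 and tsc22d3 lie outside the cascade. The group means of igfals were 45.4 ± 5.51, 50.1 ± 9.62, 99.3 ± 34.1 and 118 ± 23.7 CPM in order of size (SD, n = 3 each), a log2 slope of 0.51 per step (SE 0.08, adjusted p = 0.0193). For igf2bp1 they were 6.51 ± 1.05, 8.05 ± 2.48, 3.48 ± 0.709 and 3.25 ± 0.642 CPM, a slope of −0.43 (SE 0.08, adjusted p = 0.0358). For pik3r2 they were 16.3 ± 3.28, 41.8 ± 1.80, 21.1 ± 5.16 and 45.7 ± 5.34 CPM, a slope of 0.34 (SE 0.06, adjusted p = 0.0294).

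The 3 trends were not even gradients. In igfals and igf2bp1 the values of the 2 planktivore groups overlapped, as did those of the 2 piscivore groups. In pik3r2 the planktivores of 2022 stood above the piscivores of 2023, although they were smaller. The slope of igf2b was 0.33 (SE 0.06, adjusted p = 0.0347) and that of igf2bp3 −0.30 (SE 0.05, adjusted p = 0.0294), a log2 change over the order of 0.98 and −0.89. With single libraries left out, igf2b stayed below an adjusted p of 0.05 in 4 of 12 fits (0.0506 to 0.146 in the other 8) and igf2bp3 in 8 of 12 (0.0591 to 0.121 in the other 4). The slope of igf1 was 0.38 (SE 0.12, adjusted p = 0.114), with group means of 7.92 ± 2.30, 4.07 ± 0.557, 9.35 ± 3.53 and 14.6 ± 6.69 CPM in order of size (SD, n = 3 each). The call of igfals was lost without piscivore 3 of 2022 or planktivore 5 or 6 of 2023 (adjusted p 0.112, 0.0591 and 0.0932). That of igf2bp1 was lost without 8 of the 12 libraries, each left out alone (piscivores 2 and 3 and planktivores 3 and 4 of 2022, piscivores 1 and 4 and planktivores 5 and 6 of 2023; adjusted p 0.0530 to 0.168). That of pik3r2 was lost without piscivore 3 of 2022 or planktivore 5 or 6 of 2023 (adjusted p 0.121, 0.0644 and 0.0589). Without piscivore 1 of 2022, piscivore 4 of 2023 or planktivore 4 of 2023 or with library totals in place of TMM its slope of 0.33, 0.32, 0.30 or 0.31 fell short of the fold threshold. In the 8 omissions named for igf2bp1, 14 to 91 genes of the whole table were called higher and 3 to 44 lower, against 127 and 41 with all libraries.

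In several PI3K genes the same 2 fish held the highest and the lowest value. The catalytic subunit genes pik3cd and pik3cg, the regulatory pik3r5 and the adaptor pik3ap1 are best known in mammals from leukocytes. For pik3cd piscivores of 2023 had 29.8, 11.8 and 18.8 CPM, against 6.20, 13.9 and 16.1 CPM in planktivores of 2023, and in 2022 piscivores had 12.4, 20.4 and 16.1 CPM, against 20.7, 11.7 and 20.5 CPM in planktivores. All 4 genes were highest of the 12 libraries in piscivore 1 of 2023 (16.4 CPM for pik3cg, 11.6 for pik3r5 and 16.0 for pik3ap1) and lowest in planktivore 4 of 2023 (5.18, 1.96 and 3.67 CPM). The same 2 libraries had the highest and lowest sum of 9 leukocyte markers, 3647 and 758 CPM, against 958 to 2252 CPM in the other 10. Of these sums, cd74a alone made up 2808 and 594 CPM. All 9 markers were highest in piscivore 1 of 2023, but only 5 were lowest in planktivore 4 of 2023. The markers mpeg1.1, spi1a, spi1b and coro1a were lowest in planktivore 3 of 2022. Their part in the PI3K values was not tested. None of the 4 genes was DT in any of the 7 comparisons by edgeR or DESeq2, and the only unadjusted p below 0.05 by edgeR was that of pik3cg between the phenotypes of 2023. The gene pik3cb, for a more widely expressed catalytic subunit, had 20.5 to 31.0 CPM in piscivores and 19.2 to 26.2 CPM in planktivores. It was highest in piscivore 3 of 2022, but its lowest value was also that of planktivore 4 of 2023. Of the 57 members tested, 19 were lowest in planktivore 4 of 2023, so that end is not particular to the 4 genes.

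**Figure D5:**
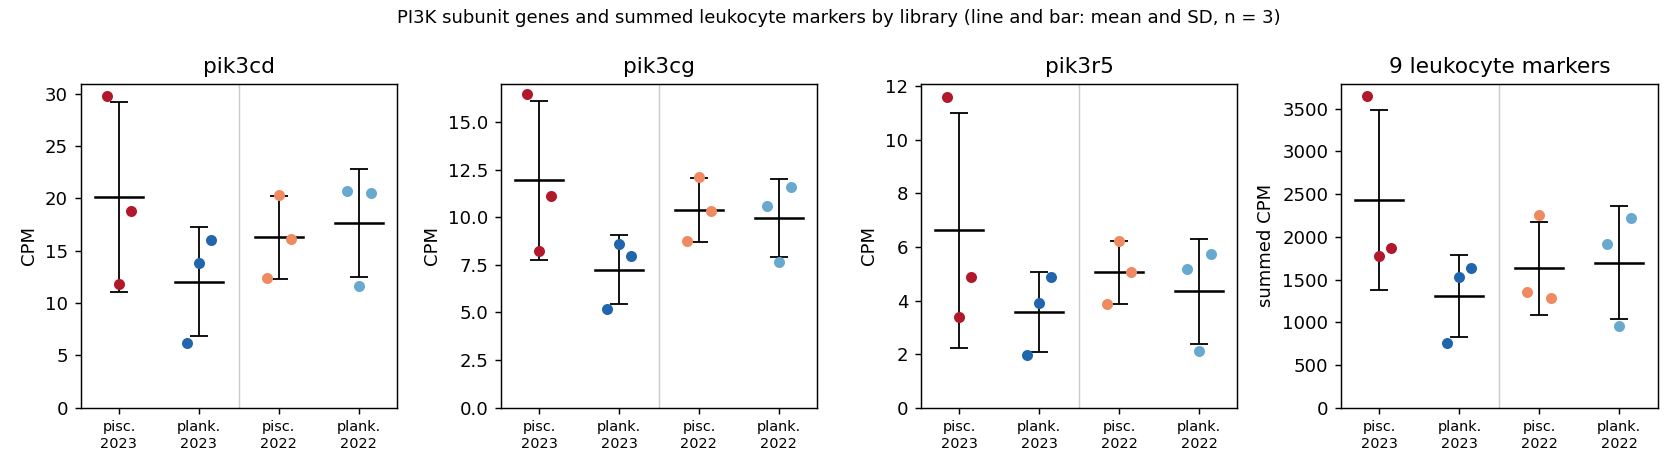
TMM-normalized CPM of pik3cd, pik3cg and pik3r5, and the summed CPM of 9 leukocyte markers, in the piscivores and planktivores of 2023 and of 2022, 1 point per fish, with the mean and SD of 3 fish. Piscivore 1 of 2023 is the highest point in each panel and planktivore 4 of 2023 the lowest.

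The class II PI3K genes also differed among themselves. Between years, pik3c2b had 12.6, 18.8 and 16.9 CPM in planktivores of 2023, against 23.4, 32.0 and 32.9 CPM in planktivores of 2022, and 18.1, 15.8 and 23.6 CPM in piscivores of 2023, against 28.7, 31.8 and 29.5 CPM in piscivores of 2022. The years were separate in both phenotypes (log2 fold changes −0.85 and −0.66, adjusted p = 0.0691 and 0.143 by edgeR). The scarce pik3c2g had 0.924 to 1.08 CPM in piscivores and 1.09 to 1.35 CPM in planktivores of 2023, and 0.160 to 1.18 CPM in piscivores and 1.21 to 1.31 CPM in planktivores of 2022, where the lowest piscivore value equals 3 counts. The PI3K inhibitor gene pik3ip1 had 83.4 to 185 CPM in piscivores and 146 to 189 CPM in planktivores (log2 fold change over both years −0.36, SE 0.19, adjusted p = 0.419).

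Of 80 further genes of the pathway (insulin and growth hormone, proteases and stanniocalcins that act on binding proteins, receptor adaptors, JAK2 and STAT5, regulators of AKT and mTOR, and FoxO targets known in mammals), 73 to 77 were tested and none was DT in any of the 7 comparisons by edgeR. Between phenotypes, an unadjusted p below 0.05 was found in 5 of 77 in 2023, 9 of 74 in 2022 and 10 of 76 over both years, against 13.7%, 7.25% and 14.9% of all genes. Between years it was found in 3 higher and 14 lower of 76 in planktivores, against 8.53% and 11.5% of all genes, and in 9 higher and 6 lower of 73 in piscivores, against 7.14% and 10.2%. For the difference between years in the phenotype effect the count was 8 of 76 and along the size order 14 of 76, against 6.4% and 18.7%. DESeq2's Wald test called 3 of 76 (ddit4, gh1 and socs3a) for the difference between years in the phenotype effect, against 0.404% of all genes. Between phenotypes it called 2 of 74 in 2022 (ddit4 and socs3a), against 0.698%. In 2023 and over both years it called 0, against 1.81% and 0.959%. Between years it called 2 of 76 in planktivores (sgk2a and socs2), against 2.72%, and 1 of 73 in piscivores (socs3a), against 1.77%. Along the size order it called 2 of 76 (gh1 and sgk2a), against 2.24%. The gene gh1 is itself a marker of the pituitary, and was highest in piscivores 1 and 2 and planktivore 4 of 2023.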

How the data were processed

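Per the study's methods, reads were trimmed (Trimmomatic), mapped with STAR 2.5.2 to SLUC_FBN_1.2, and uniquely mapped reads in exons were summed per gene. The authors deposited raw counts and TPM of 12 libraries. Of 32987 lines, 24 name no gene (0.589% to 3.18% of counts) and were set aside. Counts were tested in R 4.3.3 with edgeR 4.0.16 (filterByExpr, TMM, robust quasi-likelihood, Benjamini-Hochberg over all genes). Phenotypes were compared within years, years within phenotypes, and phenotype (year as a term), interaction and size order over 12 libraries. The deposited TPM served for levels between genes. Scripts were tested on simulated data.

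Other settings comprised DESeq2 1.42.0, its size factors, library totals, looser and stricter count filters, a joint fit, abundant genes removed, the adjusted p alone, a replicate block, and omission of single libraries. Removal of 34 ribosomal RNA genes and the leukocyte markers were chosen after seeing the data. Ranges of an adjusted p over alternatives set aside the block and single omissions.

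Members and lists were chosen with earlier results of these data known. Named were called members, the ligands, receptors, binding proteins and main signalling genes whatever their values (apart from 3 members not reported here by name or drawn), and in each comparison the 5 members of smallest unadjusted p in each direction. Counts cover all members.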

Additional observations from a re-analysis of the deposited data

How the results depend on the processing

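Counts of members called moved by more than 1.5 times under some settings. DESeq2's Wald test called 2 members between the phenotypes of 2023, 4 in 2022, 2 between years in piscivores, 4 over both years and 5 along the size order. Without a filter beyond 1 count, 1 member was called in 2022, where 16 of 29517 genes were called higher and 27 lower. In that setting 2 were called between years in piscivores, where 73 of 28975 genes were called higher and 52 lower. For the same comparison, 1 fit to all 12 libraries called 2 members, against 12 genes higher and 57 lower of 21789. DESeq2's size factors called 1 member there, against 52 genes higher and 39 lower of 20511. With the adjusted p alone 4 were called between years in planktivores, 4 over both years and 5 along the size order. With library totals in place of TMM, 1 member was called higher and 2 lower between years in planktivores, against 176 higher and 114 lower of 21311 genes. Replicate numbers name different fish, and deviations of same-numbered fish from their group means correlated at −0.0963 to 0.136. With the replicate block, 0 members were called over both years and 0 along the size order, where 0 and 1 of 21789 genes were called. Groups sharing fewer than 2 numbers had no such fit. With each library left out in turn, the calls of members ranged from 0 to 5 along the size order and 0 to 3 over both years. Between years they were 0 to 2 in planktivores and 0 to 1 in piscivores. They were 0 to 0 between the phenotypes of 2022, of 2023 and for their interaction. Calls over all genes ran from 14 higher and 6 lower to 240 and 122 along the size order, and from 1 and 0 to 86 and 27 over both years. Between years they ran from 2 and 10 to 33 and 115 in planktivores, and from 15 and 7 to 51 and 26 in piscivores. The adjusted p alone was passed by at most 2 genes in 2022, 16 in 2023 and 8 for the interaction. No called fold change reversed its sign under any setting run, whereas with library totals in place of TMM 15 members changed sign between years in planktivores and 15 in piscivores, none of them called. Depth limits igf3, ghrl and pik3r6b, which lay near the floor of 3 counts.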
